A study of Rattus norvegicus with 8 samples.

Results

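Genes of RNA splicing were followed in the rat dorsal root ganglion (DRG), where the cell bodies of primary sensory neurons lie, before and after nerve injury in both sexes. The set holds 44 of the 32623 gene identifiers in the deposited count table. A gene belonged to it when it had at least 10 counts in at least 2 libraries and a symbol that matched by name. The names were those of SR proteins, SR-related proteins, hnRNPs, CLK kinases, snRNPs, SF3, PRPF, LUC7-like, U2AF, CELF and MBNL proteins. Numbered RBM proteins, DHX helicases and DDX helicases numbered with at least 2 digits also matched, as did Leng8, Son, Pnisr, Ddx5 and Ddx6. Symbols were known for 1961 identifiers, and only through the study's own lists of changed genes, so a splicing gene that those lists do not hold could not enter. Every one of the 44 symbols that matched by name also passed the count threshold, for which 17100 identifiers qualify. The lowest count of any of these genes in any library was 179, so none lay near the threshold.

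The lists that supplied the symbols fix what can be read from each comparison. The list of genes higher in naïve males supplied 24 of the 44, the list higher in naïve females supplied 2 (Hnrnpc and Snrpd1), and the list for the interaction of sex and injury held 38. Of the 24, 19 were also on the interaction list, and 18 genes entered through the interaction list alone. A table of genes decreased in males after injury held 4 of them (Leng8, Clk1, Pnisr and Snrnp70), and the tables for females held 0. The differences between the naïve sexes, the changes after injury in either sex and their interaction are therefore descriptions of how these genes were chosen. No gene's p-value is printed for them, and counts of calls stand beside the share over all genes with nothing read from them.

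Each library came from the ipsilateral L4-L6 DRGs of 1 Sprague Dawley rat, and 8 libraries formed 4 groups of 2 adult, gonadally intact rats: naïve males, males with chronic constriction injury (CCI), naïve females and females with CCI. In CCI the sciatic nerve is loosely tied with silk, and tissue was taken on day 14. The naïve rats had no sham surgery, rats whose paw withdrawal threshold did not respond in the manner required were left out by the study, and the estrus stage of the females was not determined. The libraries held 39489103 to 60818457 counts, and the share of counts on the 44 genes ranged from 0.472% in the second CCI male to 0.954% in the first naïve male. Expression is given as counts scaled to a common library total (CPM), with edgeR's TMM factors. Of the marker lists, 9 genes of sensory neurons summed to 18400 to 30700 CPM over the libraries. Of 12 listed genes induced in injured neurons, 9 had a symbol, and all 9 passed higher in both sexes after CCI. Of all genes, 9.05% passed higher in males and 3.69% in females. These 9 were named by the study's lists of genes changed in the same libraries, so nothing follows from their passing.

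Splicing removes introns from nuclear transcripts and joins their exons. The U1 snRNP recognises the start of the intron and the U2 snRNP, with its SF3 proteins, the branch point, while helicases remodel the spliceosome as it assembles and acts. SR proteins bind exons through RNA recognition motifs and recruit the machinery through arginine- and serine-rich tails, hnRNPs often oppose them, and CLK kinases phosphorylate those tails and so release SR proteins from nuclear speckles. Many genes of this family control their own transcript level by splicing that retains introns or includes exons with early stop codons, and counts per gene do not separate such forms.

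The roles within the set were 8 SR proteins, 5 speckle and SR-related proteins, 2 CLK kinases, 4 proteins of the U1 snRNP and the LUC7 family, 3 of the U2 snRNP and the Sm ring, 6 PRP factors and helicases, 6 hnRNPs and 7 RBM proteins. The last 3 genes were caught by the name pattern. Of these, Ddx58 and Ddx25 do not bear out the label of a nuclear splicing set. Ddx58 encodes RIG-I, a cytoplasmic sensor of viral RNA, Ddx25 is a helicase best known from the testis, and Celf5 is an RNA-binding protein expressed mainly in neurons.

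The promoters of the 4 genes with the lowest log2FC in males after CCI, and of Rbm43, the 1 gene that passed higher in females after CCI, are shown as the starts of the genes on which the results turn. Each stretch is the 120 bases before the gene's start on the strand of the gene, from RefSeq on the GRCr8 build. Capitals mark a GC box, a CCAAT box or an ETS core on either strand.
Leng8, chr1:79124739-79124858, minus strand: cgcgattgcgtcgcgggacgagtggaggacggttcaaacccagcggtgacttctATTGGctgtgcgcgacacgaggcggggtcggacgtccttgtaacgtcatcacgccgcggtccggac
Clk1, chr9:67453181-67453300, minus strand: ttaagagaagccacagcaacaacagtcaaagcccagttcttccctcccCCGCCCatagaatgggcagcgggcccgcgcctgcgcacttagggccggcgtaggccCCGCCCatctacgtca
Pnisr, chr5:40192615-40192734, plus strand: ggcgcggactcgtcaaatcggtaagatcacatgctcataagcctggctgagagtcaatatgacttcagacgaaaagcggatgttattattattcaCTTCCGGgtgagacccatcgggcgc
Snrnp70, chr1:105012852-105012971, minus strand: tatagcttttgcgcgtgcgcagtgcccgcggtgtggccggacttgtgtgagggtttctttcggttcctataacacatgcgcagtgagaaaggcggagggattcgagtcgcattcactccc
Rbm43, chr3:56813924-56814043, minus strand: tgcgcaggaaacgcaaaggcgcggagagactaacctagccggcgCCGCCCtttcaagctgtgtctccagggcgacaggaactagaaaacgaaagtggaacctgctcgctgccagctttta

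RefSeq windows from 250 bases before to 50 bases after the start were found for 40 of the 44 symbols, all but Ddx58, Luc7l, Rbm11 and Srrm2. Their median GC content was 61.2% against 52.3% over all 27457 windows, and they held a median of 27.5 CpG dinucleotides against 7. Both strands were searched for 6 motifs. The GC box, spelled GGGCGG, was present in 60% of the windows of these genes and in 34.9% of all windows. The CCAAT box, named by its letters, was present in 47.5% and 37.7%. The core of ETS factor sites, spelled CCGGAAG, was present in 22.5% and 9.22%. The letters TGACG, the core of the cyclic AMP response element, were present in 50% and 22%. The whole element, which reads TGACGTCA and contains that core, was present in 2.5% and 1.91%. The TATA box, spelled TATAAA, was present in 10% and 14.3%. These shares were not adjusted for GC content, and a match of letters is not a measured binding site. All 27457 windows were taken whether or not the gene is expressed in the DRG, where all 44 genes are. The values were not compared with those of other expressed genes.

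Across the 8 libraries the 44 genes did not follow the 4 groups alone. The first naïve male had the highest level of the 8 libraries for 38 of the 44 genes. The lists chose 24 of the 44 for a high level in naïve males, and most others through an interaction that uses the same rats. A highest level in a naïve male was therefore largely fixed by the choice, and nothing is read from it. The shares of all genes highest or lowest in each library were not computed. Centred on each gene's own mean over the libraries, the median log2 CPM of the 44 genes was 0.59 and 0.32 in the naïve males, -0.18 and -0.21 in the injured males, -0.15 and 0.05 in females before and -0.14 and -0.17 in females after CCI, where the same median over all 16988 genes tested lay between -0.02 and 0. The naïve males had the highest medians, as the choice of genes favours. The other 6 libraries ran from -0.21 to 0.05, a range about as wide as the difference between the naïve males. Summed over the genes, expression was 9090 and 7690 CPM in the naïve males and 5100 and 4860 in the injured males, and 5110 and 5950 in the naïve and 5130 and 4970 in the injured females. In pooled tissue, fewer cells of a type and less RNA per cell cannot be told apart.

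**Figure D1:**
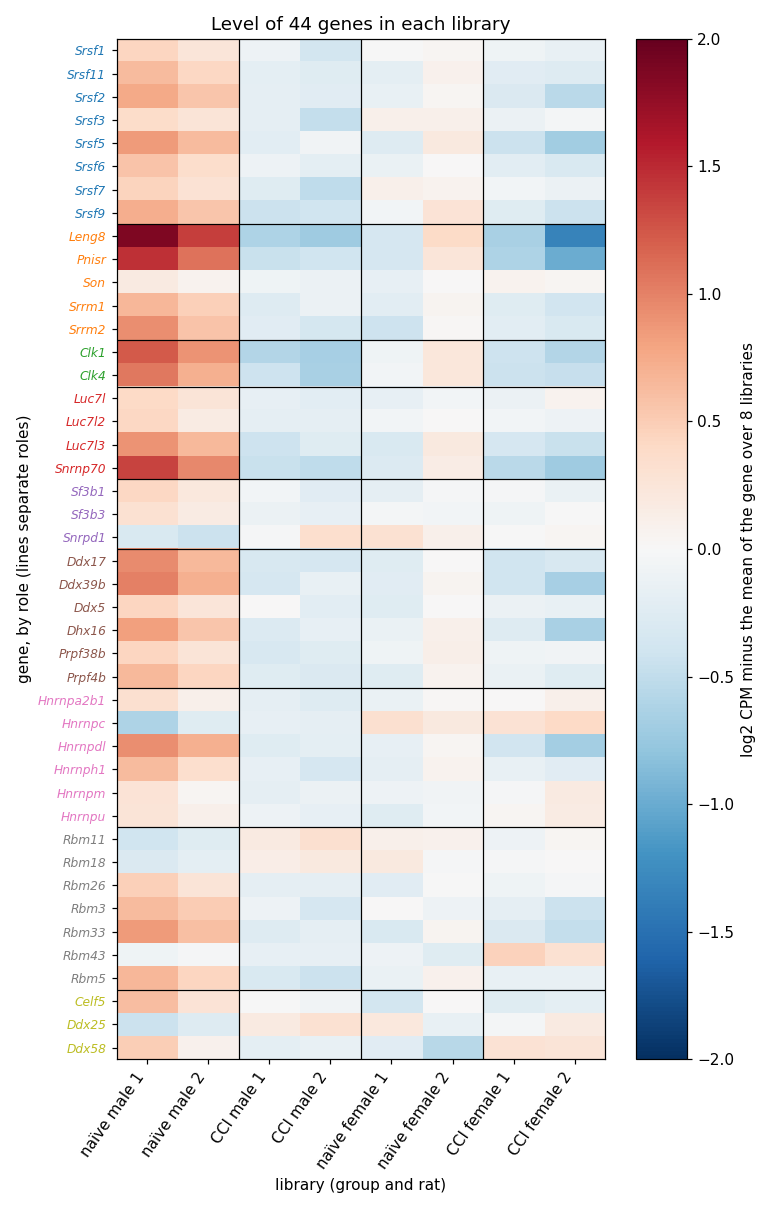
Heat map of log2 CPM of each of the 44 genes (rows, by role) minus the gene's mean over the 8 libraries (columns, by group and rat), with red above and blue below that mean. The naïve male columns are red for most genes, with medians of 0.59 and 0.32, which the choice of the genes largely fixed. The second CCI female and second CCI male hold the lowest level of 14 and 13 genes.

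The direction in which the 2 rats of a group differed was not used by the lists, although their tests, which rest on the spread between rats, favour genes whose rats are close. In naïve males 39 of the 44 were higher in the first rat, with a median log2 difference (second minus first rat) of -0.21. In naïve females 33 were higher in the second rat, with a median of 0.20, which is the opposite order. The CCI rats were closer, with medians of -0.03 in males and -0.06 in females, and 28 genes higher in the first rat in each. Over all genes tested the 4 medians lay between -0.02 and 0.01. In naïve males 44.7% of all genes were higher in the second rat, and in naïve females 50.5%. The 650 tested genes on the naïve male list had medians of -0.24 in naïve males and 0.16 in naïve females. The 1513 on the interaction list had -0.04 and 0.01. The 24 splicing genes on the naïve male list, at -0.26 and 0.28, thus moved in the same directions as that list. The 18 from the interaction list alone were at -0.16 and 0.05. In naïve males their shift was larger than that of the interaction list as a whole. Leng8 differed most of the 44, by 0.72 between the naïve females and by -0.69 between the CCI females. The columns of the first naïve male and the first CCI male carry a letter in their names whose meaning is not given in the sources used here, and the study sequenced in 2 batches. Those sources do not give the batch of each library, so no value within a batch could be computed. The study ran samples of each batch again in 1 lane to look for batch effects, and those runs were not analysed here.

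**Figure D2:**
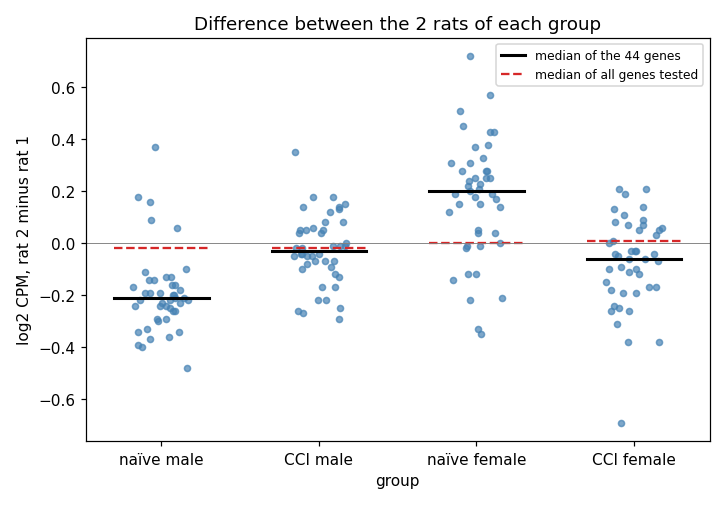
Difference in log2 CPM between the 2 rats of each group (second minus first) for each of the 44 genes (points), with the median of the genes (black line) and of all genes tested (dashed red line). Points lie mostly below 0 in naïve males (median -0.21) and above 0 in naïve females (median 0.20).

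The question of the first comparison was what CCI changes in males. Calling a gene took an adjusted p under 0.05 by edgeR's quasi-likelihood test as well as a log2FC beyond 0.5 in either direction, and 21.6% of all genes tested were called in males, 12.5% lower and 9.05% higher. Of the 44 genes, 28 were called lower and 3 higher (Ddx25, Rbm11 and Snrpd1), and 39 had a log2FC below 0 against 51.0% of all genes. The median log2FC was -0.68, and values ran from -2.30 (Leng8) to 0.59 (Ddx25). Since the lists chose genes by the level of the same naïve males, nothing follows from this count. The genes of the naïve male list as a whole gave the same picture, with 547 of 650 called (84.2%) and a median of -0.94, beside 22 of 24 (91.7%) and -0.93 for the splicing genes on it. Without the first CCI male, 0 genes of the whole table were called, at medians of -0.73 for the set and -0.01 for all genes.

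In females CCI called 5.69% of all genes, 2% lower and 3.69% higher. The set held 4 genes called lower (Clk1, Clk4, Pnisr and Snrnp70) and 1 called higher (Rbm43). The log2FC was below 0 in 33 of the 44 against 52.4% of all genes, with a median of -0.15. For the 24 genes of the naïve male list the median was -0.32, with 23 below 0, and for all 650 genes of that list it was -0.25, with 509 below 0. This count rested on single libraries, since 13 genes of the set were called without the first naïve female (7.35% of all genes), 1 without the second (10.8%), and 0 without the first or second CCI female (0.842% and 0.494%).

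**Figure D3:**
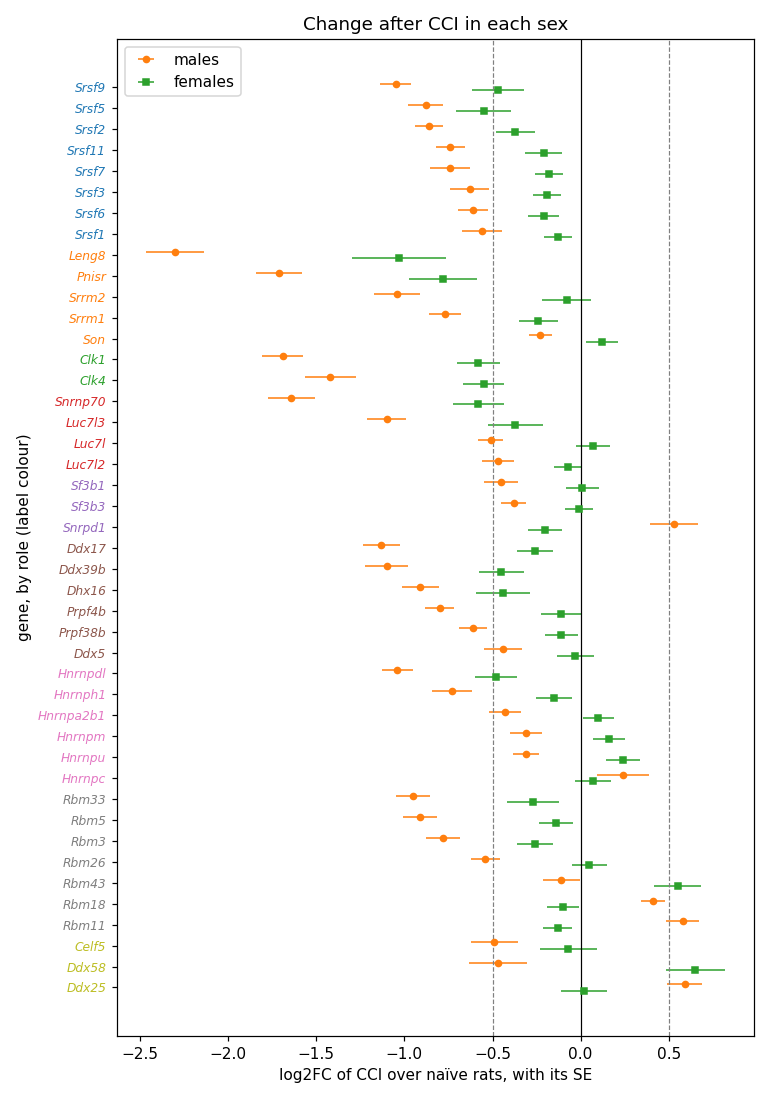
log2FC of CCI over naïve rats, with its SE, for each of the 44 genes (rows, by role) in males (circles) and females (squares), from 2 rats a group. The dashed lines mark the threshold of 0.5, and the males reach -2.30 in Leng8 where the females reach -1.03.

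Counts of calls by role are given beside 12.5% of all genes called lower in males and 2% in females. Nothing is read from them, since 84.2% of the whole naïve male list was called in males. All 8 SR proteins (Srsf1, Srsf2, Srsf3, Srsf5, Srsf6, Srsf7, Srsf9 and Srsf11) were called lower in males, with log2FC from -1.05 to -0.56. In females they had log2FC from -0.55 to -0.13, with 0 called. Their summed level was 1590 and 1390 CPM in the naïve males and 934 and 866 in the injured males, and 991 and 1110 in the naïve and 908 and 850 in the injured females. Srsf9 (ENSRNOG00000001163) had the largest change in males among them. It was at 23.1 and 20.4 CPM in the naïve males and 10.3 and 10.6 in the injured males, and 13.4 and 16.9 in the naïve and 11.8 and 10.3 in the injured females. The log2FC of Srsf9 after CCI was -1.05 (SE 0.0865) in males and -0.47 (SE 0.147) in females. Naïve males were highest, both CCI groups lowest, and the naïve females between them.

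Srsf1 (ENSRNOG00000050323), the founding SR protein and a regulator of many alternative exons, was at 322 and 282 CPM in naïve males and 223 and 186 in CCI males. In females it was at 237 and 244 CPM before and 225 and 216 after CCI. Its log2FC was -0.56 (SE 0.113) in males, just past the threshold, and -0.13 (SE 0.0797) in females. Srsf5, which was chosen for mention after its values were seen, was the SR protein with the lowest log2FC in females, at 149 and 203 CPM in naïve and 132 and 110 in CCI rats.

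The speckle and SR-related proteins held the largest changes of the set. Leng8 (ENSRNOG00000018642), which takes part in nuclear mRNA export and quality control, was at 542 and 389 CPM in the naïve males and 97.4 and 90.9 in the injured males, and 118 and 195 in the naïve and 95.1 and 59.1 in the injured females. Its log2FC was -2.30 (SE 0.166) in males, to 0.203 of the naïve level, and -1.03 (SE 0.268) in females. The naïve males lay far above all other libraries, and the 2 naïve females differed from each other by more than the first naïve female differed from the CCI males.

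Pnisr (ENSRNOG00000008782), an SR-related speckle protein, had the next largest change in males. It was at 267 and 206 CPM in the naïve males and 71.0 and 73.5 in the injured males, and 77.2 and 115 in the naïve and 63.5 and 48.9 in the injured females. The log2FC of Pnisr was -1.71 (SE 0.129) in males and -0.78 (SE 0.194) in females. The groups did not overlap in either sex, but the lower naïve female was close to the CCI males.

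Srrm2 (ENSRNOG00000058561), a scaffold of nuclear speckles, was at 749 and 585 CPM in naïve males and 338 and 308 in CCI males. In females Srrm2 was at 295 and 399 CPM before and 341 and 319 after CCI, so the groups overlapped in females. Its log2FC was -1.04 (SE 0.131) in males and -0.08 (SE 0.139) in females. Srrm1, its partner in exon joining, was called lower in males (-0.77) and was at -0.24 in females. Son, the other speckle scaffold, had log2FC of -0.23 in males and 0.12 in females and was not called.

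Both CLK kinases were called lower in both sexes, against 12.5% of all genes in males and 2% in females. Clk1 (ENSRNOG00000025768) was at 244 and 194 CPM in the naïve males and 69.3 and 66.2 in the injured males, and 98.2 and 122 in the naïve and 78.7 and 69.4 in the injured females. Its log2FC was -1.69 (SE 0.117) in males and -0.58 (SE 0.121) in females, and neither sex had overlapping groups. Clk4 (ENSRNOG00000003714) was at 59.6 and 47.0 CPM in the naïve males and 21.6 and 18.2 in the injured males, and 27.6 and 33.6 in the naïve and 21.2 and 20.8 in the injured females. The log2FC of Clk4 was -1.42 (SE 0.143) in males and -0.55 (SE 0.117) in females. Between CCI females and CCI males the log2FC was 0.13 for Clk1 and 0.08 for Clk4, and the naïve females lay between the CCI rats and the naïve males.

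Among the U1 snRNP and LUC7 proteins, 3 of 4 were called lower in males and 1 in females, against 12.5% and 2% of all genes. Snrnp70 (ENSRNOG00000020763), the 70K protein that binds U1 RNA, was at 356 and 271 CPM in the naïve males and 102 and 98.2 in the injured males, and 115 and 155 in the naïve and 95.7 and 85.3 in the injured females. The log2FC of Snrnp70 was -1.64 (SE 0.135) in males and -0.58 (SE 0.143) in females. The LUC7 proteins help U1 to choose the splice site. Luc7l3 was called lower in males (-1.10) and was at -0.37 in females. Luc7l passed the threshold narrowly in males (-0.51) and Luc7l2 did not reach it (-0.47), and the 2 genes were at 0.07 and -0.07 in females.

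**Figure D4:**
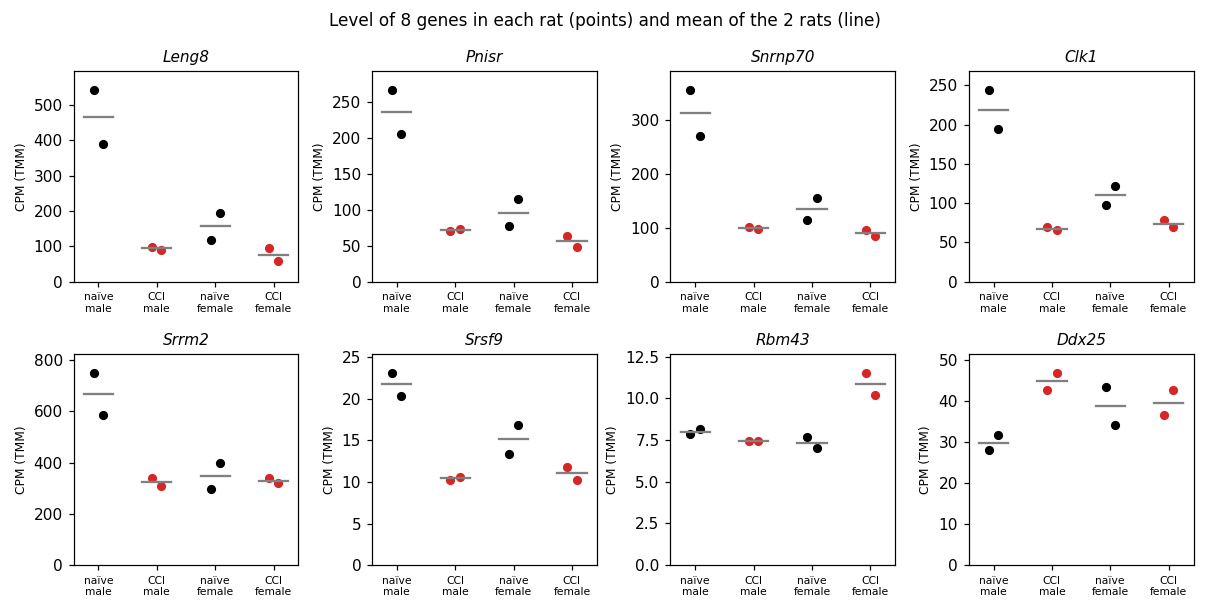
CPM of 8 genes in each rat (points, black for naïve and red for CCI) with the mean of the 2 rats of each group (line); each panel has its own axis from 0. Leng8, Pnisr, Snrnp70, Clk1, Srrm2 and Srsf9 are highest in the naïve males, Rbm43 is highest in the CCI females (11.5 and 10.2 CPM), and Ddx25 is lowest in the naïve males (28.0 and 31.7 CPM).

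Of the 3 U2 snRNP and Sm proteins, 0 were called lower and 1 higher in males, and 0 were called in females. Sf3b1 (ENSRNOG00000013516), the SF3B subunit that holds the branch point, was at 355 and 308 CPM in the naïve males and 256 and 228 in the injured males, and 235 and 260 in the naïve and 262 and 241 in the injured females. Its log2FC was -0.45 (SE 0.0959) in males and 0.01 (SE 0.0917) in females. Sf3b3, of the same complex, had log2FC of -0.38 and -0.01. Snrpd1 (ENSRNOG00000013714), a protein of the Sm ring that every major spliceosomal snRNP except U6 carries, was the one called higher. It was at 29.4 and 26.8 CPM in the naïve males and 35.6 and 45.5 in the injured males, and 44.7 and 38.6 in the naïve and 35.8 and 37.1 in the injured females, with a log2FC of 0.53 (SE 0.135) in males and -0.20 (SE 0.0968) in females. Naïve males were lowest, and the CCI males overlapped with both female groups. How reads that match several places, such as processed copies of small genes like Snrpd1 and Hnrnpc, were counted is not given in the sources used here.

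Of the PRP factors and helicases, 5 of 6 were called lower in males and 0 in females, against 12.5% and 2% of all genes. Ddx17 (ENSRNOG00000051170) and Ddx5 (ENSRNOG00000030680) are paralogous DEAD-box helicases that also act as transcriptional coregulators. Ddx17 was at 528 and 432 CPM in the naïve males and 221 and 218 in the injured males, and 233 and 276 in the naïve and 208 and 219 in the injured females. Its log2FC was -1.13 (SE 0.105) in males and -0.26 (SE 0.101) in females. Ddx5 was at 840 and 736 CPM in the naïve males and 626 and 536 in the injured males, and 526 and 626 in the naïve and 575 and 561 in the injured females. The log2FC of Ddx5 was -0.44 (SE 0.109) in males, under the threshold, and -0.03 (SE 0.104) in females, where the groups overlapped. Ddx39b, which loads export factors on spliced mRNA, was called in males at -1.10 and was at -0.45 in females. The splicing helicase Dhx16 and the kinase Prpf4b were called in males at -0.91 and -0.80, and Prpf38b at -0.61.

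Of the 6 hnRNPs, Hnrnpdl and Hnrnph1 were called lower in males and 0 in females. Hnrnpdl (ENSRNOG00000002270) is a paralog of hnRNP D. It was at 185 and 158 CPM in the naïve males and 81.6 and 84.2 in the injured males, and 86.8 and 99.0 in the naïve and 74.3 and 60.1 in the injured females, with log2FC of -1.04 (SE 0.0880) and -0.48 (SE 0.121). Hnrnph1, which binds G-rich tracts, was at -0.73 in males and -0.15 in females. Hnrnpu (ENSRNOG00000033790), a scaffold-attachment factor that binds RNA and chromatin, was at 426 and 383 CPM in naïve males and 334 and 319 in CCI males. In females Hnrnpu was at 301 and 344 CPM before and 367 and 400 after CCI, so the order of naïve and CCI was reversed between the sexes. Its log2FC was -0.31 (SE 0.0757) in males and 0.24 (SE 0.0976) in females, and neither these changes nor the interaction was called. Hnrnpm and Hnrnpa2b1 had the same pair of signs, with -0.31 and -0.43 in males and 0.16 and 0.10 in females. Hnrnpc was at 0.24 in males and 0.07 in females.

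Of the RBM proteins, Rbm3, Rbm5, Rbm26 and Rbm33 were called lower in males and Rbm11 higher. Rbm33 (ENSRNOG00000006718), which takes part in mRNA export, was at 35.3 and 29.8 CPM in the naïve males and 16.3 and 17.2 in the injured males, and 15.8 and 20.4 in the naïve and 16.0 and 14.1 in the injured females. The log2FC of Rbm33 was -0.95 (SE 0.0958) in males and -0.27 (SE 0.147) in females. Rbm5 (ENSRNOG00000018153), a regulator of exon choice in apoptosis genes, was at 159 and 134 CPM in the naïve males and 81.1 and 74.4 in the injured males, and 91.7 and 106 in the naïve and 90.4 and 90.5 in the injured females. Its log2FC was -0.91 (SE 0.0955) in males and -0.14 (SE 0.0939) in females.

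Rbm43 (ENSRNOG00000004673) was the 1 gene called higher in females. It was at 7.69 and 7 CPM in naïve and 11.5 and 10.2 in CCI females, and at 7.84 and 8.16 in naïve and 7.42 and 7.41 in CCI males. The log2FC was 0.55 (SE 0.134) in females and -0.11 (SE 0.106) in males, and the CCI females stood above all other libraries. Rbm3, a protein induced by cold, was at -0.78 in males and -0.26 in females. Rbm11, a tissue-specific splicing regulator, was at 61.5 and 68.7 CPM in naïve males and 92.2 and 101 in CCI males, with log2FC of 0.58 (SE 0.0935) in males and -0.13 (SE 0.0818) in females. Rbm18 was at 0.41 and -0.10 in males and females, without a call.

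The 3 genes caught by the name pattern went different ways. Ddx25 (ENSRNOG00000012260) was at 28.0 and 31.7 CPM in the naïve males and 42.8 and 46.8 in the injured males, and 43.5 and 34.1 in the naïve and 36.7 and 42.6 in the injured females. It was called higher in males, with a log2FC of 0.59 (SE 0.0992), and was at 0.02 (SE 0.129) in females. Ddx58 was at -0.47 in males and 0.65 in females and Celf5 at -0.49 and -0.07, and neither was called.

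Between the naïve sexes 39 of the 44 genes were lower in females, with a median log2FC (females over males) of -0.53, against 50.8% of all genes, and 0 were called against 0.0706%. The 5 genes higher in females were Ddx25, Hnrnpc, Rbm11, Rbm18 and Snrpd1. An unadjusted p under 0.05 was reached by 40 of the 44, against 25.6% of all genes, and DESeq2 called 24, against 4.23% of all genes. This is the contrast whose DESeq2 lists supplied 26 of the genes, so their direction, low unadjusted p and DESeq2 calls follow from the choice. The interaction, which alone supplied 18 others, also rests on the naïve rats. The choice did not fix the 0 called by edgeR, where the 2 tests differ. Nothing is read from these counts. In the interaction of sex and CCI, edgeR called 4 of the 44 (9.09%) against 1.59% of all genes, and 38 of the 44 were on the list that this contrast had produced.

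The CCI rats are a separate set of animals from the naïve rats, so for the 26 genes that the naïve lists supplied the comparison of CCI females with CCI males did not take part in their choice. It is the 1 comparison in which a sex difference of these genes could be tested. None of the 26 passed by edgeR, beside 1.06% of all genes. DESeq2 called 2 of the 44, Hnrnpc and Rbm43, and 0 of the 24 genes higher in naïve males, against 1.57% of all genes. For the 24 genes higher in naïve males, the log2FC (females over males) was below 0 in 16 and above 0 in 8, against 49.4% below 0 over all genes. Their median was -0.09, where the same genes had -0.73 in naïve rats, whose values chose them. With 1 library left out the median lay between -0.15, without the first CCI female, and -0.03, without the second, with 14 to 18 genes below 0. An unadjusted p under 0.05 was reached by 6 of the 24, against 18.3% of all genes, and the adjusted p ranged from 0.136 to 0.876. The 2 groups did not overlap in 9 genes lower and 3 higher in females, against 26.5% and 24.7% of all genes. All 650 genes of the naïve male list had a median of -0.04, with 374 below 0 and 17 called (2.62%).

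Single genes varied around that median. Srsf5 was lowest, at 153 and 170 CPM in CCI males and 132 and 110 in CCI females (log2FC -0.42, SE 0.109, adjusted p = 0.136 by edgeR). Leng8, with the largest difference between naïve rats (-1.57), was at -0.28 (SE 0.207) in CCI rats, and Snrnp70, at -1.22 in naïve rats, was at -0.14 (SE 0.0769). Clk1 was at -0.99 in naïve rats and at 0.13 (SE 0.0814) in CCI rats. Ddx58 was highest of the 24, at 5.48 and 5.63 CPM in CCI males and 7.67 and 7.50 in CCI females (log2FC 0.45, SE 0.127, adjusted p = 0.157 by edgeR). These SEs leave room for differences of a size that the test could not call.

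Of the 2 genes higher in naïve females, Hnrnpc (ENSRNOG00000011621), which binds uridine tracts in nascent transcripts, kept its direction. It was at 10.2 and 13.2 CPM in the naïve males and 13.9 and 13.8 in the injured males, and 19.5 and 18 in the naïve and 19.0 and 20.6 in the injured females. Both CCI females were above both CCI males, while the order of the naïve rats is what chose the gene. In the CCI rats its log2FC was 0.52 (SE 0.0827, adjusted p = 0.0542 by edgeR), just short of the threshold. The call depended on the setting, since DESeq2 gave an adjusted p of 0.00474 and edgeR without the filter on low counts 0.037. Without the second CCI male edgeR gave 0.0347, and over all alternatives the adjusted p ran from 0.00474 to 0.249. Snrpd1, at 0.57 in naïve rats, was at -0.15 (SE 0.127) in CCI rats.

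**Figure D5:**
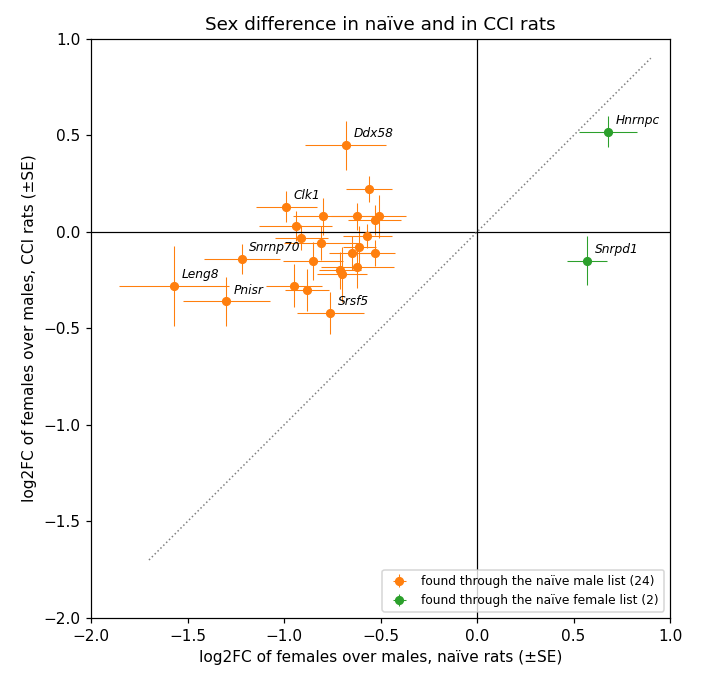
log2FC of females over males in naïve rats (horizontal axis) and in CCI rats (vertical axis), each with its SE, for the 24 genes supplied by the naïve male list and the 2 supplied by the naïve female list. Along the dotted line both differences are equal, and the genes of the naïve male list lie near 0 on the vertical axis (median -0.09) at -0.73 on the horizontal one.

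For the 18 genes that came from the interaction list alone, the CCI comparison is part of what chose them. In it 14 were higher in females, with a median of 0.14. Rbm43 was at 0.55 (SE 0.119) and Hnrnpa2b1 at 0.29 (SE 0.0707), the highest values among those 18 with Srsf7 (0.29).

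Splicing genes outside the name rule were few. Of a list of 123 further spliceosome and splicing regulator genes, 10 had an identifier in the study's lists, which means that they too were chosen on these libraries. In males 8 of the 10 were called lower, against 12.5% of all genes, with a median of -0.84. The other 2 were Sfpq and Nono, paraspeckle proteins, at -0.27 and -0.20. In females 2 were called lower, against 2% of all genes, both cyclins that partner the splicing-linked CDK11 kinases. Ccnl1 was at 55.4 and 47.2 CPM in the naïve males and 21.0 and 18.4 in the injured males, and 26.7 and 32.8 in the naïve and 21.6 and 16.7 in the injured females, with log2FC of -1.38 (SE 0.108) and -0.64 (SE 0.153). Ccnl2 was at 182 and 154 CPM in the naïve males and 76.5 and 80.9 in the injured males, and 99.0 and 106 in the naïve and 75.3 and 66.6 in the injured females. The log2FC of Ccnl2 was -1.09 (SE 0.0944) in males and -0.54 (SE 0.0931) in females. Rbmx, an hnRNP, was called in males at -0.94, and Rsrp1, an SR-rich protein, was at -0.80 in females without a call, while Sfpq and Nono were at 0.24 and 0.13 there. Between the naïve sexes all 10 were lower in females and 0 were called, in the CCI rats 0 were called, with a median of 0.08, and the interaction called Acin1.

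Markers of other cells moved with the groups as well. The 8 Schwann cell and myelin genes summed to 13500 and 11100 CPM in the naïve males and 3540 and 3390 in the injured males, and 9550 and 7790 in the naïve and 5630 and 4340 in the injured females. All 8 were called lower in males and 3 in females, against 12.5% and 2% of all genes. All 8 were below 0 in naïve females against naïve males. Between CCI females and CCI males they had a median log2FC of 0.47, with 3 of 8 called higher, where the splicing genes had 0.05. For these 8 markers the median difference between rats (second minus first) was -0.3 in naïve males, where the splicing genes had -0.21. It was -0.08 in CCI males and -0.14 in CCI females, where the splicing genes had -0.03 and -0.06. Only in naïve females did the signs differ, at -0.24 for the markers and 0.20 for the splicing genes. The 9 sensory neuron genes ran the other way, from 18400 and 20800 CPM in naïve males to 29800 and 30700 in CCI males, and were at 22600 and 23300 in naïve and 23400 and 27900 in CCI females, with 7 called higher in males. In females 0 of the 9 were called higher and 1, Pvalb, lower (log2FC -0.84). Of all genes, 9.05% were called higher in males and 3.69% in females. Red blood cell genes summed to 140 CPM in the first naïve male and 1530 in the second, 276 and 247 after CCI in males, and 1590 and 2370 before and 197 and 246 after CCI in females. The 5 muscle genes summed to 90.5 and 97.1 CPM in CCI males and to between 25 and 46.5 in the other libraries, and the 4 fibroblast genes to 1780 and 1830 in CCI males and 2490 to 2980 elsewhere. Satellite glia genes summed to 172 to 246 CPM, macrophage genes to 136 to 346, mast cell and neutrophil genes to 1.17 to 14.1, and the 1 gene of T and B cells ranged from 0.0765 to 2.75. No tested marker was at 0 in any library, no endothelial gene and no gene of nonsense-mediated decay had an identifier in the study's lists, and the 1 immediate early or heat shock gene with one ranged from 3.51 to 8.01 CPM. The part of these cells, and of the handling of the tissue, in the levels of the splicing genes was not tested.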

How the data were processed

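The deposited table holds raw read counts that the authors made with featureCounts per Ensembl gene of rat, after CASAVA 1.8.2, HISAT2 alignment to rn6 and removal of ribosomal RNA reads. Libraries were strand-specific and poly(A)-selected, and no batch correction was made. The treatment of reads with several matches is not given in the sources used here. All 8 sample columns were used. Total counts averaged 47603454.

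edgeR's filterByExpr on the 8 libraries, with a minimum count of 10 and a minimum total of 15, kept 16988 genes, all 44 of the set among them. Each comparison was fitted on its 4 libraries with edgeR 4.0.16 (quasi-likelihood test, TMM) in R 4.3.3, the interaction on all 8. Benjamini-Hochberg adjustment of p-values ran over all genes tested, with calls at an adjusted p under 0.05 and, except for the interaction, an absolute log2FC above 0.5. The SE is the size of the log2FC divided by the square root of F, and log2 CPM has a prior count of 2. For 2 rats against 2, the smallest two-sided p of an exact test is 0.333.

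Alternatives were DESeq2 1.42.0, its size factors, no filter on low counts, a fit over 8 libraries, leaving out each library, and the replicate number as a block. The members and all gene lists were chosen with earlier results of these data known. Values in every library are given for the genes with the largest absolute log2FC in males and the highest mean CPM of each role, those called in females, and others said to be chosen after their values were seen. Hnrnpc, Rbm11 and Ddx58 are among the latter. Symbols came from the study's lists of changed genes by identifier. The lists' fold changes and p-values were not used.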

Additional observations from a re-analysis of the deposited data

Results flagged for a closer look

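In 4 genes the change after CCI differed between females and males by the interaction term in edgeR, at an adjusted p under 0.05. The difference in log2FC (females minus males) was 1.12 for Clk1, 0.88 for Ddx17, 0.78 for Rbm5 and -0.69 for Rbm11. All 4 entered through the study's list for the same interaction on the same libraries, so these values describe the choice and add no support to it. With the replicate number as a block, Clk1 and Rbm11 kept their call, Ddx17 and Rbm5 lost it, and Rbm3 gained it. Leaving out any of 6 of the 8 libraries left none of the 44 genes called, but also at most 2 genes of the whole table. Without the second naïve male 8 of the 44 were called (2.2% of all genes), and without the second naïve female 10 (3.31%). The 2 groups of naïve rats are also those in which the 2 rats differed most in these genes.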

How the results depend on the processing

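Of the counts of genes called in the set, the one in males stayed within 30 to 31 (31 as reported) under DESeq2, its size factors, no filter on low counts, the block and the fit over 8 libraries, and ran from 0 to 36 with a library left out. In females the reported count was 5, with 8 without the filter, 8 with the replicate number as a block and 2 in the fit over 8 libraries, and 0 to 13 with a library left out. Between naïve sexes the count was 0, with 24 under DESeq2, 6 without the filter, 25 in the fit over 8 libraries and 0 to 9 with a library left out. Between CCI sexes it was 0, with 2 under DESeq2, 1 without the filter and 0 to 1 with a library left out. For the interaction it was 4, with 34 under DESeq2, 26 without the filter, 3 with the block (2 of them among the reported 4) and 0 to 10 with a library left out. The share of all genes called moved as well. In males it was 14.5% under DESeq2 and 26.4% with the block. In females it was 5.11% without the filter, 6.95% with the block and 5.39% over 8 libraries. Between naïve sexes it was 4.23% under DESeq2, 0.543% without the filter and 5.33% over 8 libraries. Between CCI sexes it was 1.57% under DESeq2 and 1.19% without the filter. For the interaction it was 6.57% under DESeq2, 4.31% without the filter and 1.85% with the block. The cause of these shifts was not tested, though a fit without a library assumes that the lone rat of its group varies like the others. Leng8 and Ddx58 were among the genes called in females under several of these settings. No gene called in the set changed its direction under these alternatives. For the called genes, 276 of the alternative values stayed on their side of the threshold and 96 fell short of it. Over all genes, the replicate number as a block lowered the share called between CCI sexes from 1.06% to 0.4% and between naïve sexes from 0.0706% to 0.0353%, and raised it in males from 21.6% to 26.4%. Deviations of same-numbered rats correlated at 0.731 between naïve and CCI males, a hint from the data of a shared source there, at 0.129 and 0.142 in 2 other pairs of groups, and at most 0.038 in the remaining 3. The labels name no source for the numbers and not every pair was over 0.1, so they were not taken to pair rats. DESeq2's size factors left the medians of the differences between rats within 0.01. Every gene of the set had at least 179 counts in every library, and the precision of a comparison rests on 2 rats a group. The same counts over all splicing genes of a reference were not run, because no table used here pairs symbols with these identifiers.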
